A study of Mus musculus with 6 samples.

Results

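The genes that flank Trpc4 on mouse chromosome 3 were described in the hippocampus of Trpc4 knockout mice, to ask whether expression beside the deleted gene differs along with it. The members were 10 neighbours chosen by name, of 22180 genes tested: Stoml3 before Trpc4 in the order along the chromosome, and Postn, Exosc8, Alg5, Smad9, Rfxap, Ccna1, Sohlh2, Dclk1 and Nbea after it, in that order. Each was read by 1 probe set, a group of array probes summarised as 1 log2 signal, and all 10 were measured. The arrays held hippocampal RNA of male mice at postnatal day 56 on a C57BL/6J background, 3 samples labelled Trpc4 wild type and 3 labelled Trpc4 knock out. No treatment is named for either genotype. The labels do not give the deleted part of Trpc4, the embryonic stem cell strain in which the allele was made, or whether each sample is 1 animal or a pool. If samples share an animal, the p-values given below rest on technical spread.

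Trpc4 encodes a cation channel opened downstream of receptors that activate phospholipase C. A targeted allele is usually made in embryonic stem cells and then bred onto another strain, and a stretch of stem cell chromosome can stay linked to it through backcrossing. Removing or inserting DNA can also touch the regulation of the genes next to it. For these reasons the neighbours of a deleted gene are commonly looked at as a control in knockout expression studies. The 10 neighbours here have unrelated jobs: neuronal trafficking and cytoskeleton, general RNA and glycan metabolism, transcription control, extracellular matrix, germ cell development and touch sensing.

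No neighbour was called at an adjusted p under 0.05 (limma, Benjamini-Hochberg over all genes tested), and the lowest adjusted p among the 10 was 0.853. Over the whole array 0 genes were called (0.0% of 22180). At an unadjusted p under 0.05 there was 1 neighbour of 10, Sohlh2, where 5.75% of all genes tested (1276) reached that level. Groups did not overlap for that same neighbour alone, where 10.9% of all genes tested did not overlap. Both counts are near the background. Of the 10 neighbours 4 were higher and 6 lower in knockout, with a median log2 difference of -0.07, beside a median of 0.01 over all genes tested. For 6 of the 10 (Dclk1, Nbea, Alg5, Rfxap, Exosc8 and Smad9) the 95% interval of the log2 difference lay within 0.5 on either side of 0, and for the others the arrays left room for larger differences.

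**Figure D1:**
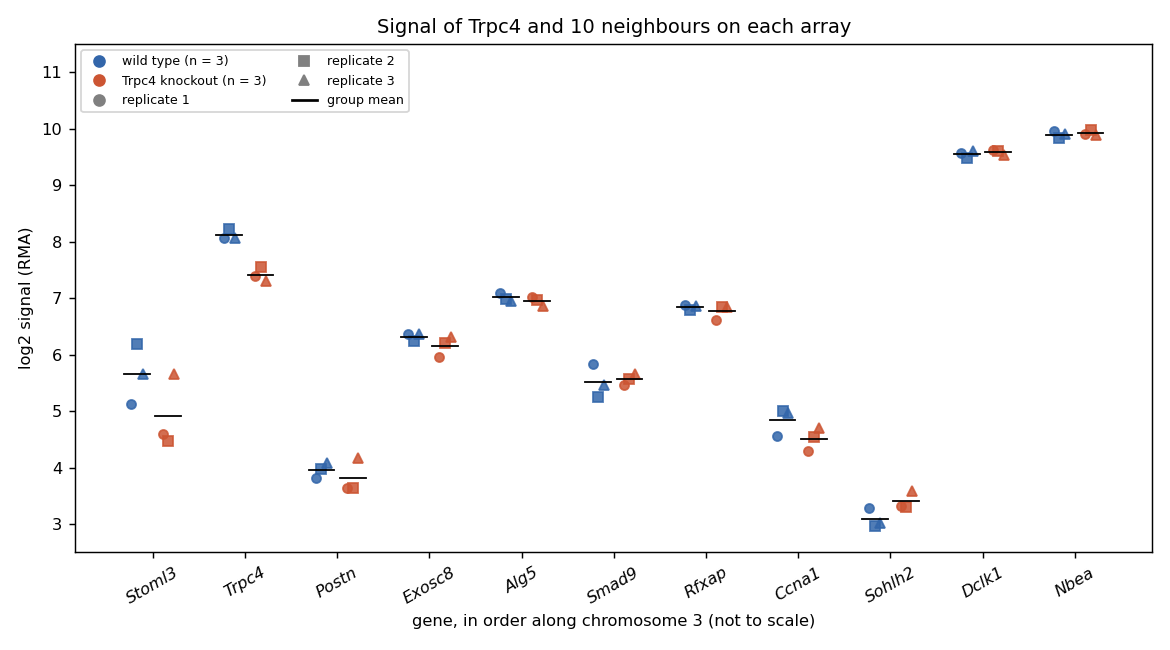
Log2 signal (vertical axis) of Trpc4 and its 10 neighbours, placed in chromosome order, on each of 3 wild-type (blue) and 3 knockout (orange) arrays, with the group mean as a black line and the replicate number as the symbol. Knockout and wild-type points are apart for Trpc4, just touch for Sohlh2 (gap 0.005) and overlap for the other 9 genes; heights of different genes are not compared, since probe sets differ in how well they bind.

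The deleted gene itself was read first, as a check of the labels. The Trpc4 signal was 8.06, 8.23 and 8.06 in wild-type replicates 1 to 3 and 7.39, 7.55 and 7.31 in knockout replicates 1 to 3 on the log2 scale. All 3 knockout values lay below all 3 wild-type values, with a gap of 0.51. The difference was -0.70 ± 0.09 (log2, knockout minus wild type, ± standard error), which leaves 61.5% of the wild-type signal (95% interval 52.9 to 71.5%). In limma the unadjusted p was 8.87e-05 and the adjusted p 0.738. An exact permutation test, two-sided, gave 0.1, which no design of 3 against 3 can go below. Among the 1051 genes measured on chromosome 3 it ranked 1 by unadjusted p. Where its probes lie relative to the deletion was not used here. The signal that remains thus cannot be assigned to intact transcripts, truncated transcripts or background of the probes. It is not a measure of the share of Trpc4 RNA that remains.

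Array medians lay between 4.72 and 4.75, and pairs of arrays correlated at 0.985 to 0.987 (Pearson's r, over probe sets). All 10 defining markers of hippocampal excitatory neurons that were looked up had a mean above the median of all probe sets, and their summed linear signal was 7137 to 7717 in wild type and 7470 to 7710 in knockout. Of these 10 markers 8 were higher and 2 lower in knockout, and 4 had groups that did not overlap, beside 10.9% of all genes tested. At an unadjusted p under 0.05 there were 2 of 10, beside 5.75% of all genes tested. These 2 differed in opposite directions: Wfs1 at -0.25 ± 0.08 and Spink8 at 0.27 ± 0.11. Of 8 microglia markers 4 were higher and 4 lower, 0 at that level. A list of 9 measured markers of myelinating oligodendrocytes had a summed signal of 3572 to 3828 in wild type and 2347 to 3421 in knockout. In knockout 9 of 9 genes were lower (median -0.44). All 9 had an unadjusted p under 0.05 and 8 had groups that did not overlap, beside 5.75% and 10.9% of all genes tested. After adjustment over all genes 0 of the 9 passed (limma, lowest adjusted p 0.849). Aspa, Ermn, Opalin, Mog, Mag, Cnp, Cldn11, Mobp and Mbp ran from -0.68 ± 0.18 (Aspa) to -0.25 ± 0.11 (Mbp). These genes are markers of 1 cell type in the same samples and are not separate findings. The list was chosen with earlier results of these data known, so its counts are not an independent test against those shares. In whole tissue, fewer cells of a type and less RNA per cell cannot be told apart. The part of this difference in the values of the neighbours was not tested.

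Nbea and Dclk1, which work in neuronal trafficking and the cytoskeleton, had the least spread among the 10. Nbea encodes neurobeachin, a large BEACH domain scaffold that guides membrane proteins to synapses. Its signal was 9.95, 9.84 and 9.90 in wild type and 9.90, 9.98 and 9.89 in knockout, which overlap, with the lowest array in wild type and the highest in knockout. The difference was 0.03 ± 0.07, with a 95% interval of -0.14 to 0.20, or 90.5 to 114.9% of the wild-type signal. The span of Nbea overlaps those of the measured genes Mab21l1, which differed by -0.052 ± 0.155, and 4933417G07Rik, by 0.135 ± 0.117. Both had means under the median of all probe sets. Dclk1 encodes a doublecortin-like kinase that binds microtubules in growing and adult neurons. Its signal was 9.57, 9.48 and 9.61 in wild type and 9.62, 9.61 and 9.54 in knockout, and the difference was 0.03 ± 0.08 (interval -0.14 to 0.21). The residual standard deviation between replicates was 0.05 for Nbea and 0.06 for Dclk1, at percentiles 8.64 and 10.6 of all genes tested. Both signs turned without wild-type replicate 2, where Nbea differed by -0.0017 and Dclk1 by -0.0052.

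Relatives of both genes were taken from lists. Of the 8 measured BEACH domain genes 6 were higher and 2 lower, 0 at an unadjusted p under 0.05, with a median of 0.03. The autophagy scaffold gene Wdfy3 had the smallest p, at 0.09 ± 0.07 with groups that did not overlap, and Nbeal1 followed at 0.07 ± 0.07. Of the 4 doublecortin family genes 1 was higher and 3 lower, 0 at that threshold, with a median of -0.06. Dcdc2a differed by -0.16 ± 0.08 and Dclk3 by -0.06 ± 0.07.

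Alg5 and Exosc8 are adjacent genes in the order and are read in opposite directions from starts that face each other. Alg5 makes dolichyl phosphate glucose, a glucose donor of N-glycan assembly, and Exosc8 encodes a ring subunit of the RNA exosome, which degrades and trims RNA. Only 174 bases lie between their annotated starts, so one short stretch of DNA borders both genes. It is printed here because the pair offers a local comparison of neighbours with a common upstream sequence. The stretch is chr3:54735365-54735538 of GRCm38.p6, plus strand, from the RefSeq promoter windows of both genes; capitals mark the GC box GGGCGG, searched on both strands.

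Exosc8 start (left) to Alg5 start (right): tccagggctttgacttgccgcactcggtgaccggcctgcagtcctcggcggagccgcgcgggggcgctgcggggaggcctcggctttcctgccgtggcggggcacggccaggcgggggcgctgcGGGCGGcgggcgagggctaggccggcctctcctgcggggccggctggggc

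The stretch is 79.9% G or C and holds 23 CG pairs. The Alg5 signal was 7.09, 6.99 and 6.96 in wild type and 7.02, 6.96 and 6.85 in knockout, which overlap. It differed by -0.07 ± 0.08 (interval -0.25 to 0.12). The Exosc8 signal was 6.36, 6.23 and 6.36 in wild type and 5.96, 6.20 and 6.31 in knockout. Knockout replicate 1 was the lowest array, and knockout replicate 3 lay within the wild-type range. Exosc8 differed by -0.16 ± 0.10 (interval -0.41 to 0.08), and by -0.07 without knockout replicate 1. The array with the lowest value was knockout replicate 1 for Exosc8 and knockout replicate 3 for Alg5. The span of Exosc8 overlaps that of Supt20 in the reference table. Supt20, a transcription coactivator gene, differed by 0.08 ± 0.09.

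Genes that work with Alg5 and Exosc8 were taken from lists. Of 23 measured genes of dolichol-linked glycan assembly and transfer, 14 were higher and 9 lower, 0 at an unadjusted p under 0.05, with a median of 0.02. Rpn1, a subunit of oligosaccharyltransferase, differed by -0.17 ± 0.07 (p 0.0518) and Alg14 by -0.19 ± 0.10. Of 16 measured genes of the RNA exosome and its cofactors, 10 were higher and 6 lower (median 0.06). Groups did not overlap for 4 of the 16, beside 10.9% of all genes tested. At an unadjusted p under 0.05 there were 2 of 16, beside 5.75% of all genes tested. These 2 differed in opposite directions. Exosc9, another ring subunit, went from 7.04 ± 0.04 to 6.75 ± 0.13 (SD, n = 3 each), a difference of -0.29 ± 0.09. The nuclear exoribonuclease gene Exosc10 went from 6.98 ± 0.11 to 7.21 ± 0.07, a difference of 0.23 ± 0.09. Their adjusted limma p values were 0.849 and 0.853.

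Rfxap and Smad9 belong to transcription control. Rfxap encodes a subunit of the RFX complex, which binds the promoters of MHC class II genes. Its signal was 6.87, 6.79 and 6.85 in wild type and 6.62, 6.84 and 6.85 in knockout. A single low array, knockout replicate 1, made the difference of -0.07 ± 0.09, which was 0.0082 without it. Of 14 measured genes of the RFX complex, its partners and MHC class II, 9 were higher and 5 lower, and the median was 0.03. H2-Aa, a class II chain, had an unadjusted p of 0.0248 at 0.25 ± 0.09, from a wild-type mean of 2.93, where the median of all probe sets is 4.72. H2-Ab1, which encodes its partner chain, differed by -0.11 ± 0.08.

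Smad9 encodes a receptor-activated Smad of bone morphogenetic protein (BMP) signalling. Its signal was 5.84, 5.26 and 5.46 in wild type and 5.46, 5.57 and 5.66 in knockout, so that the wild-type arrays held both the highest and the lowest value. It differed by 0.04 ± 0.15 (interval -0.30 to 0.39). Without wild-type replicate 2 it differed by -0.09, without knockout replicate 3 by -0.0056 and without wild-type replicate 1 by 0.21. The other 26 genes of the BMP list were higher in 16 and lower in 10, 0 at an unadjusted p under 0.05, with a median of 0.04. Closest were the extracellular BMP antagonist gene Chrd at 0.24 ± 0.11 (p 0.0530) and the inhibitory Smad gene Smad7 at -0.23 ± 0.10 (p 0.0609).

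Postn is the first measured gene after Trpc4 and encodes periostin, a secreted fasciclin protein of collagen-rich matrix. RefSeq lists 2 starts for it. The 250 bases before the inner start are printed because Postn is the member next to Trpc4 and this window, alone among those of the neighbours, holds a TATA box. The window is chr3:54360857-54361106 of GRCm38.p6, plus strand; capitals mark TATAAA, searched on both strands, which begins 26 bases before the start.

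Postn, 250 bases before the inner start: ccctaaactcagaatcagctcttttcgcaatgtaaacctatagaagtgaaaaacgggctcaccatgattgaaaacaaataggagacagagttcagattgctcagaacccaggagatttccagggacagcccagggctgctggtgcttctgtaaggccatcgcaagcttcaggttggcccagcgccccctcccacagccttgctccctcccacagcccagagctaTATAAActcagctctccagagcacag

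TATAAA was found in 12.4% of the 32851 RefSeq promoter windows of this length. It too was chosen after the windows had been seen. The Postn signal was 3.82, 3.98 and 4.07 in wild type and 3.64, 3.63 and 4.17 in knockout, under the median of all probe sets (4.72) on each array. Knockout replicate 3 was the highest of the 6 arrays and the other 2 knockout arrays were the lowest. Postn differed by -0.14 ± 0.16 (interval -0.50 to 0.22). Without knockout replicate 3 it differed by -0.32, with an unadjusted limma p of 0.0193. Of 10 markers of fibroblasts of meninges and vessels, 6 were higher and 4 lower, 0 at an unadjusted p under 0.05. Their summed linear signal was 840.4 to 895.6 in wild type and 847.4 to 1003 in knockout, with knockout replicate 3 the highest. The part of these cells in the Postn values was not tested. Of 15 measured genes of fasciclin proteins, collagens and other matrix partners, 5 were higher and 10 lower, 0 at that threshold, with a median of -0.02. Fibronectin (Fn1) differed by 0.12 ± 0.07 and the collagen gene Col5a1 by -0.15 ± 0.09.

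Sohlh2 and Ccna1 are genes of germ cells, and both were dim, with means under the median of all probe sets. Sohlh2 encodes a basic helix-loop-helix factor of early spermatogonia and oocytes. Its signal was 3.29, 2.96 and 3.03 in wild type and 3.31, 3.29 and 3.59 in knockout. Every knockout array was above every wild-type array, by a gap of only 0.005 between wild-type replicate 1 and knockout replicate 2. Sohlh2 differed by 0.31 ± 0.12 (interval 0.03 to 0.59), and its limma p was 0.0360 unadjusted and 0.853 adjusted. The unadjusted p passed 0.05 no longer without wild-type replicate 2 (0.24, p 0.116), wild-type replicate 3 (0.28, p 0.0964) or knockout replicate 3 (0.21, p 0.121), or with trend and robust variance (p 0.0546). Of 9 other measured germ cell factors, 7 were higher and 2 lower (median 0.05), and 2 had a mean above the median of all probe sets. The oocyte homeobox gene Nobox differed by 0.25 ± 0.09 (p 0.0252). Sohlh1, which encodes the partner of SOHLH2, differed by -0.19 ± 0.09 (p 0.0631), the other way from Sohlh2.

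Ccna1 encodes cyclin A1, which male germ cells need for meiosis. Its signal was 4.56, 4.99 and 4.97 in wild type and 4.30, 4.53 and 4.70 in knockout. Wild-type replicate 1 lay among the knockout arrays, and the groups overlapped. Ccna1 differed by -0.33 ± 0.15 (interval -0.68 to 0.01), with an unadjusted limma p of 0.0582. Without wild-type replicate 1 it differed by -0.47 (p 0.0101), without knockout replicate 3 by -0.43 (p 0.0323) and without knockout replicate 1 by -0.23 (p 0.186). The span of Ccna1 overlaps that of 4931419H13Rik, which differed by 0.09 ± 0.19. Of 9 measured genes of cyclin A, its kinases and their inhibitors, 5 were higher and 4 lower (median 0.02). At an unadjusted p under 0.05 there were 3 of 9, beside 5.75% of all genes tested. Ccna2, the cyclin A of dividing cells, went from 4.07 ± 0.18 to 4.56 ± 0.11 (SD, n = 3 each), a difference of 0.49 ± 0.11. Its partner kinase gene Cdk1 went from 4.05 ± 0.17 to 3.62 ± 0.15, a difference of -0.43 ± 0.12, and the kinase subunit gene Cks2 differed by -0.25 ± 0.10. Their adjusted limma p values were 0.849 to 0.853, and all 3 were dim in the same sense.

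Stoml3 lies 3 places before Trpc4 and encodes a stomatin-like membrane protein that tunes mechanosensitive channels in touch neurons and is also known from olfactory sensory neurons. Its difference was the largest of the 10 and so is shown with its upstream sequence, the 250 bases before the start (chr3:53488457-53488706 of GRCm38.p6, plus strand, RefSeq). Capitals mark TGTTTAC, the core bound by many forkhead factors, searched on both strands.

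Stoml3, 250 bases before the start: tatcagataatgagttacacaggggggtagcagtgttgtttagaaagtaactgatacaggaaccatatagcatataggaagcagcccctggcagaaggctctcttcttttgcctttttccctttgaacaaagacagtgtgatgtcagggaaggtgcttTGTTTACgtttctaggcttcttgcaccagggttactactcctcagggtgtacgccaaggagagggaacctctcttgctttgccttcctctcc

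TGTTTAC was found in 3.17% of all promoter windows and in no window of the other neighbours. The motif was chosen after the windows had been seen, so its rarity is no evidence of a role at Stoml3. The Stoml3 signal was 5.13, 6.19 and 5.65 in wild type and 4.60, 4.48 and 5.66 in knockout. Knockout replicates 1 and 2 lay below every wild-type array, while knockout replicate 3 lay above wild-type replicates 1 and 3. The difference of -0.74 ± 0.36 was about that of Trpc4 in size, with a standard error of 0.36 against 0.09 for Trpc4 and an interval of -1.58 to 0.10. The limma p was 0.0751 unadjusted and 0.861 adjusted. The residual standard deviation of Stoml3 was 0.59, beside a median of 0.12 over all genes tested, and stood at percentile 99.9 of them. Counting Stoml3, 14 genes of 22180 differed by at least as much in either direction. Leaving out 1 array moved the difference between -1.12 (without knockout replicate 3, p 0.00593) and -0.47 (without wild-type replicate 2). Without wild-type replicate 1 the unadjusted p was 0.0347.

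Markers of other cell types were set beside Stoml3. Of 5 measured olfactory sensory neuron markers 3 were higher and 2 lower, and their summed linear signal was 225.3 to 254.3 in wild type and 225.3 to 253.6 in knockout. Of these 5 markers 3 were dim, with means under the median of all probe sets, among them the defining marker Omp. The sum is therefore a limited reading of these cells. Of 9 measured markers of choroid plexus and ependyma, 9 were lower in knockout, with a median of -0.18. Where 5.75% of all genes tested had an unadjusted p under 0.05, 1 of the 9 did. That was Ttr, the transthyretin gene, at -0.43 ± 0.18 (p 0.0454), and 5 of the 9 had means under the median of all probe sets. The summed signal of the list was 389.9, 387.8 and 417.6 in wild type and 337.1, 336.3 and 384.1 in knockout. Knockout replicates 1 and 2 were low and knockout replicate 3 stood closer to wild type, as for Stoml3, whereas within wild type the highest array was replicate 3 for the list and replicate 2 for Stoml3. The oligodendrocyte list had the same order among knockout arrays, with sums of 2859, 2347 and 3421 for replicates 1 to 3 against 3828, 3572 and 3712 in wild type. Its lowest array, knockout replicate 2, was also the lowest for Stoml3, while its highest, wild-type replicate 1, had the lowest wild-type Stoml3 signal. Knockout replicate 3 was also the highest knockout array for the fibroblast list (847.4, 879.3 and 1003), for Postn and, barely, for microglia (828.1, 741.7 and 828.8). It was the lowest for the olfactory and excitatory neuron lists. A high knockout replicate 3 was thus not particular to choroid plexus, ependyma and oligodendrocytes. The part of any cell type in the Stoml3 difference was not tested. The stomatin family and mechanosensing channel list had 4 genes higher and 5 lower of 9 measured, 0 at an unadjusted p under 0.05, with a median of -0.01. Stoml1 differed by -0.12 ± 0.10 and the channel gene Piezo1 by 0.10 ± 0.08.

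**Figure D2:**
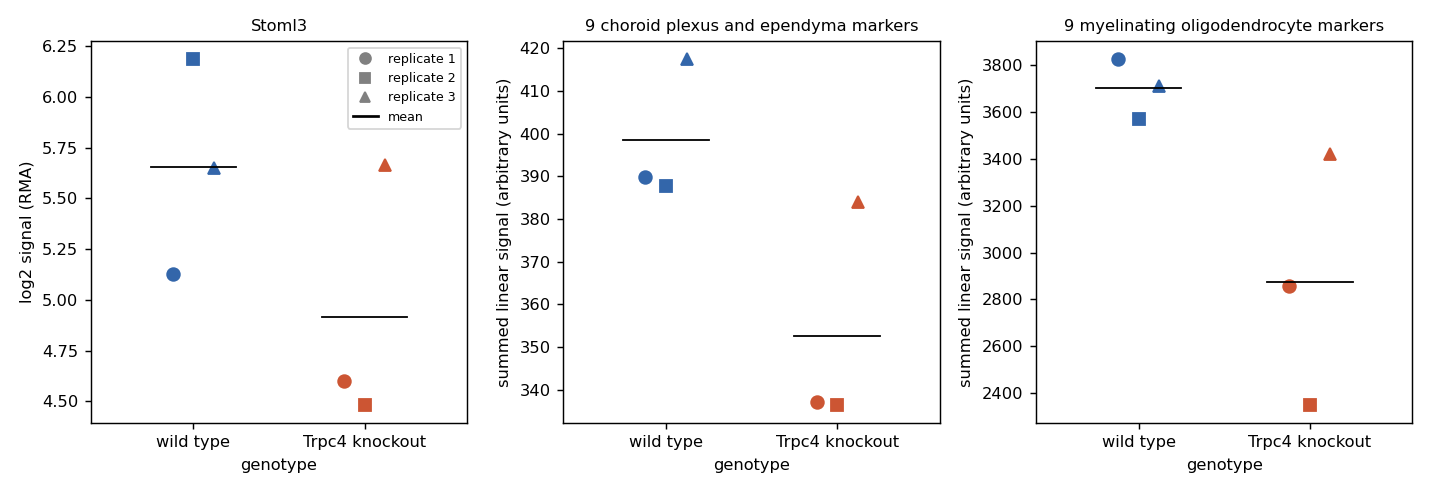
Left, log2 signal of Stoml3; middle and right, summed linear signal of 9 markers of choroid plexus and ependyma and of 9 markers of myelinating oligodendrocytes, on each of 3 wild-type (blue) and 3 knockout (orange) arrays, with the mean as a line; no axis starts at 0. In all 3 panels knockout replicates 1 and 2 are the lowest arrays; knockout replicate 3 lies inside the wild-type range for Stoml3 (5.66) and below it for the markers (384.1 and 3421).

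The neighbours were measured with unequal precision. The residual standard deviation ran from 0.05 for Nbea to 0.59 for Stoml3. The 3 dim neighbours (Postn, Ccna1 and Sohlh2) stood at percentiles 70.8 to 87.9 of that spread, and Smad9 stood at 84.9. Among the 7 neighbours above the median, Stoml3 included, 0 had an unadjusted p under 0.05, beside 5.75% of all genes tested. With 7 genes this count is near that share and says little.

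**Figure D3:**
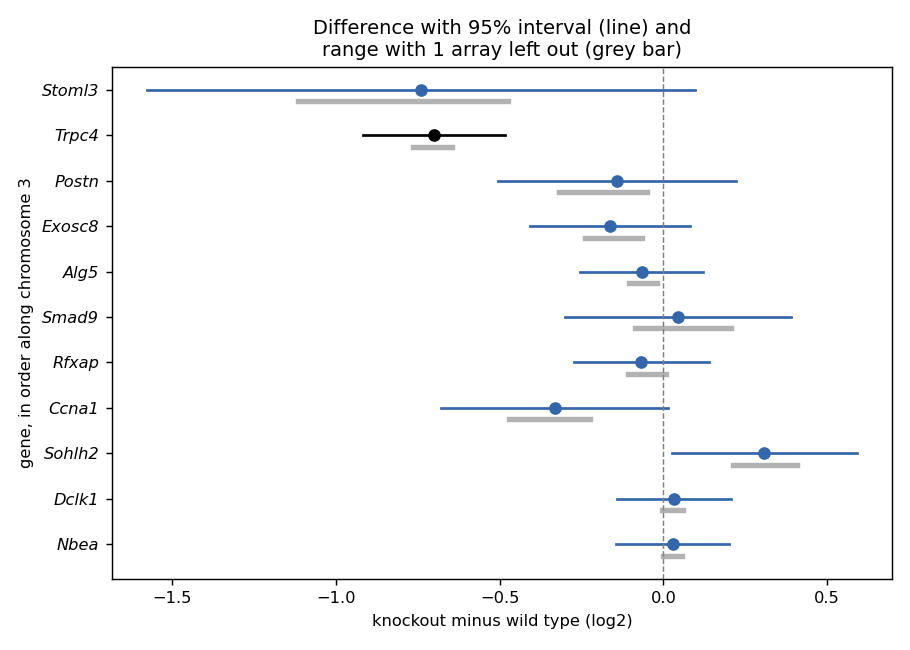
Difference between knockout and wild type on the log2 scale (horizontal axis) for Trpc4 (black) and its 10 neighbours (blue) in chromosome order; points are estimates, lines are 95% intervals of the limma fit, and grey bars are the range when 1 array is left out. The interval of Trpc4 (-0.92 to -0.48) and that of Sohlh2 (0.03 to 0.59) leave out 0, and those of the other 9 genes include it.

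The 10 neighbours were chosen by name, so all measured genes around Trpc4 were also taken in the gene order of the reference table. Of the 40 genes within 20 places of Trpc4, 20 on each side, 22 were higher and 18 lower (median 0.02), and 0 were called at an adjusted p under 0.05. At an unadjusted p under 0.05 there were 2 of 40 (5.0%, beside 5.75% over all genes), Sohlh2 and Tm4sf1. Tm4sf1, a tetraspanin-like gene of endothelial cells, had signals of 5.40, 5.75 and 5.51 in wild type and 5.06, 5.31 and 5.37 in knockout. Its groups did not overlap, by a gap of 0.04, and it differed by -0.31 ± 0.12 (p 0.0368, adjusted p 0.853). Both lie after Trpc4. Before it 0 of 20 reached that level, among them Ufm1, the gene next to Trpc4, which encodes a ubiquitin-like modifier and differed by 0.03 ± 0.10. Of the 30 genes in this stretch other than the 10 named neighbours, 18 were higher and 12 lower. The median size of a difference, whatever its sign, was 0.06 among the 40 genes and 0.08 over all genes tested. With 50 genes on each side, 5 of 100 had an unadjusted p under 0.05. Beyond those places, Ccna2 and Exosc9 from the lists above are also on chromosome 3 and next to each other, at places -65 and -66 from Trpc4. Both were named for an unadjusted p under 0.05 in those lists. Both had groups that did not overlap, beside 10.9% of all genes tested. They differed in opposite directions (0.49 and -0.29).

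**Figure D4:**
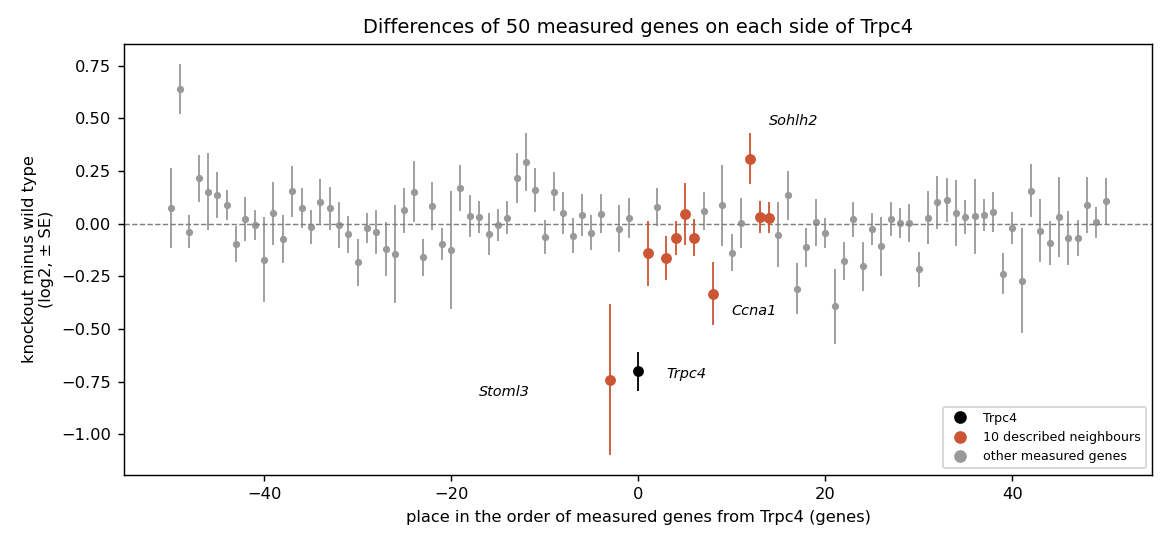
Difference between knockout and wild type (log2, with standard error) of Trpc4 (black), its 10 described neighbours (orange) and the other measured genes (grey), by place in the order of measured genes from Trpc4 in genes, not in bases. Trpc4 stands at -0.70 and Stoml3, with the widest bar among the neighbours, at -0.74, while the 40 genes within 20 places have a median of 0.02.

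The DNA before the starts separates the neighbours in another way. RefSeq promoter windows were found for 9 of the 10 by symbol. In the 250 bases before the start, Exosc8, Alg5, Nbea, Smad9 and Ccna1 had 71.2 to 78.0% G or C and 24 to 33 CG pairs, beside medians of 52.4% and 6 over all windows. Sohlh2 stood at 64.8% with 14 pairs. The windows of Postn, Dclk1 (2 starts each) and Stoml3 had 40.4 to 52.4% and 2 to 4 pairs. The GC box GGGCGG was in the windows of the 6 genes with the richer DNA and in none of the other 3, and 32.7% of all windows hold it. Windows of Alg5 and Exosc8 overlap and are not independent. The box CCAAT was in 1 window each of Ccna1 and Dclk1, beside 33.8% of all windows. The motifs were chosen after the windows had been seen, and a match of letters is not a bound site.

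Genes whose signals over the 6 arrays were most like those of each neighbour were sought by Pearson's r among 12970 genes with a mean above the median of all probe sets. The closest were Srebf1 for Stoml3 (r 0.981 over 6 arrays), Sulf1 for Ccna1 (r 0.997), Thap4 for Sohlh2 (r 0.991), Itpr3 for Postn (r 0.985) and Slc14a1 for Exosc8 (r 0.993). For Nbea, Dclk1, Smad9, Rfxap and Alg5 they were Zfp809, BC002059, Adgrl2, Ezr and Snord73b (r 0.986 to 0.996). Each neighbour had 10 to 32 candidates with r above 0.95, so the closest gene was not set apart. With 6 arrays, these likenesses describe the arrays only.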

How the data were processed

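Hippocampal RNA was isolated with Trizol, and sense cDNA carrying biotin was put on arrays, per the labels' protocols. The authors deposited 1 table of log2 signals; the submitters' processing notes name RMA and Affymetrix Power Tools for it. The versions and the genome build used are not given in those sources. RMA normalizes the arrays together, so a shift common to most genes cannot be seen, and the number of arrays limits the precision. Of 41345 probe sets, 23521 named 1 gene in the platform annotation. The probe set with the highest mean stood for its gene, which gave 22180 genes. A RefSeq table of GRCm38.p6 gave gene order.

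Differences were fitted with limma 3.58.1 (lmFit, eBayes; R 4.3.3) on genotype alone, with Benjamini-Hochberg adjustment over all genes. The fit was tested on simulated data, with planted differences larger than that of any neighbour. Whether differences of the neighbours' size would be called was not examined. The genes named are the 10 members, Trpc4, genes within 20 places of it at an unadjusted p under 0.05, genes of any list at that p, the 2 smallest p of each pathway list, and for each member the gene with the highest Pearson's r. Ufm1, Supt20, 4931419H13Rik, Mab21l1, 4933417G07Rik and Omp were added for their place or role. The members, the 10 pathway lists and the 6 marker lists were chosen with earlier results of these data known. Alternatives were other scalings, a replicate block, array weights, another variance model, a filter on dim genes, the mean over probe sets and leaving out each array. Figures were drawn with matplotlib 3.10.9.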

Additional observations from a re-analysis of the deposited data

How the results depend on the processing

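No neighbour was called at an adjusted p under 0.05 under any of the 13 alternatives to the fit. In the fit reported, no gene within 10, 20 or 50 places on each side was called. Trpc4 itself was called only with trend and robust variance, so the absence of calls says little about the neighbours. The Trpc4 difference stayed negative at an unadjusted p under 0.05 in all 13 alternatives, at -0.77 to -0.65 without single arrays. The count of genes called over the whole array was 1 (Trpc4, adjusted p 0.0378) with trend and robust variance and 0 to 1 without single arrays (Rps13, without knockout replicate 1). The count of neighbours at an unadjusted p under 0.05, 1 in the fit reported, was 2 with the replicate block (Ccna1 and Sohlh2), 2 with array weights (the same 2 genes), 2 with trend and robust variance (Ccna1 and Stoml3) and 0 with only genes above the median of all probe sets, which tests 7 of the 10. It was 0 to 3 without single arrays. The background moved with the setting too. Of all 22180 genes, 1276 reached that level in the fit reported. With the replicate block it was 1316, with array weights 1309 and with trend and robust variance 1379. Leaving out single arrays gave 1086 to 1442. Among the 12978 genes above the median of all probe sets it was 901. Without single arrays the sign turned for Dclk1 (-0.0052 to 0.061), Nbea (-0.0017 to 0.056) and Smad9 (-0.086 to 0.21), in each case without wild-type replicate 2, for Smad9 also without knockout replicate 3 (-0.0056), and for Rfxap (-0.11 to 0.0082) without knockout replicate 1. The cause was not tested. The sample titles do not say whether equal replicate numbers pair the samples. Deviations of same-numbered samples correlated at 0.07, 0.03 and -0.0038 across genes. Wild-type replicates 1 and 2 correlated best with the knockout array of their own number, and wild-type replicate 3 with knockout replicate 2. Correlations this weak cannot settle whether the samples were paired. Other scalings moved the median of all genes by under 0.1. Dim signals, as for Postn, Ccna1 and Sohlh2, limit what can be seen.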

Other observations

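Farther out, 3 more of the 100 measured genes within 50 places of Trpc4 had an unadjusted limma p under 0.05. With them 5 of the 100 (5.0%) reached that level, beside 5.75% of all genes tested. The 3 are named after their values were seen. The unnamed transcript 5430434I15Rik, 49 places before Trpc4, differed by 0.64 ± 0.12, at a p of 0.000827 unadjusted and 0.799 adjusted. Its signal was 3.28, 3.11 and 2.89 in wild type and 3.58, 3.82 and 3.79 in knockout, under the median of all probe sets, and the difference lay between 0.54 and 0.73 when single arrays were left out. P2ry13, a purinergic receptor gene of microglia 39 places after Trpc4, differed by -0.24 ± 0.10 (adjusted p 0.853), and Gm8234, 30 places after it, by -0.22 ± 0.08.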
